A study of Mus musculus with 2 samples.

Results

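A group of 9 genes of central and resting T cells was followed in regulatory T cells (Tregs) sorted from mouse kidney. The genes are the transcription factor genes Tcf7, Lef1, Foxo1, Foxp1, Klf2 and Satb1 and the receptor genes Il7r, Ccr7 and S1pr1. A probe was taken as a member when its RefSeq accession belonged to one of these symbols, which gave 14 probes for the 9 genes, among 22911 named genes on the array. All 9 were well above background on both arrays, as were 13743 of the named genes. The probes named Tcf7, Ccr7, Satb1, Foxo1 and Foxp1 in pairs, and the other 4 genes had 1 probe each.

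The Tregs came from renal tissue on day 28 of cGN, a nephritis induced with anti-GBM antibodies (against the basement membrane of glomeruli), and were sorted as CD45+CD3e+CD4+ cells with the FoxP3-hCD2 reporter, which puts human CD2 on cells that express Foxp3. Cy3-labelled RNA was put on 2 arrays of 1 colour, 1 for anti-GBM lot I and 1 for lot M, and the labels say that the severity of disease varied with the lot. By the scanner output array 1 belongs to lot I and array 2 to lot M, but the value table that was deposited with them has these the other way round. Both are therefore called by number, and each difference is array 2 minus array 1, with its lot direction unsettled. Strain, age, sex and the number of mice per array are not given in the sources used here, both arrays come from nephritic mice, and no untreated kidney and no Tregs of a lymphoid organ are among the samples used here. Tregs of both arrays therefore share the tissue, the reporter and the disease, and nothing here says how the genes compare with lymphoid Tregs. With 1 array per lot there is no replicate check and no test, and all values describe these 2 arrays.

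A level is the log2 of a probe's processed signal over the 75th percentile of the probes on the same array, so that 0 marks that percentile. The dimmest probe counted as well above background lay at -4.62 on array 1 and -4.58 on array 2. The brightness of a probe depends on its sequence as well as on its transcript, so levels of different probes were not ranked. The error after ± is the scanner's own error for the spots, which is close to a fixed share of the signal for bright spots and contains no variation between mice or hybridisations. The defining genes of the sorted cells were measured on both arrays. Foxp3 stood at 4.92 on array 1 and 4.74 on array 2, Cd3e at 5.47 and 5.58, and Cd4 at 3.21 and 3.20. Markers of other cells were detected too, with 16 of 16 proximal tubule markers and 14 of 14 macrophage markers well above background. In bulk RNA, fewer cells that express a gene and less RNA of it per cell cannot be told apart.

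These genes belong to the programme that keeps T cells quiescent, long-lived and in circulation. FOXO1 stays in the nucleus when antigen receptor and growth factor signals are weak, and there it supports the genes for KLF2, the interleukin 7 receptor and CCR7. KLF2 in turn supports S1PR1, through which T cells leave tissues towards the sphingosine 1-phosphate of blood and lymph, while CCR7 leads them into lymph nodes. TCF1 (from Tcf7) and LEF1 are related factors of naive and memory T cells, SATB1 organises chromatin of developing T cells, and FOXP1 restrains activation and the response to interleukin 7. Tregs in tissues are known for a state opposed to this one, with GATA3, the interleukin 33 receptor and effector molecules.

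Promoter sequences were taken from RefSeq (GRCm38.p6), each running from 250 bases before an annotated start to 50 bases from it, for 17 starts of 7 members. Ccr7 and S1pr1 had no entry. Short motifs of factors in this programme or opposed to it were searched on both strands. These were GTAAACA for forkhead factors such as FOXO1 and FOXP1, CTTTGA for TCF and LEF, CACCC for Kruppel-like factors, CGGAAG for ETS factors and AGATAA for GATA factors. The windows shown are that of Il7r because it was the member with the largest difference between the arrays, that of Klf2 as the factor upstream of S1pr1, a window of Tcf7 with the one forkhead match among the members, and a window of Lef1 with matches to the motif of its own family. Capitals mark every match to any of the motifs.
Il7r, chr15:9529827-9530126, minus strand: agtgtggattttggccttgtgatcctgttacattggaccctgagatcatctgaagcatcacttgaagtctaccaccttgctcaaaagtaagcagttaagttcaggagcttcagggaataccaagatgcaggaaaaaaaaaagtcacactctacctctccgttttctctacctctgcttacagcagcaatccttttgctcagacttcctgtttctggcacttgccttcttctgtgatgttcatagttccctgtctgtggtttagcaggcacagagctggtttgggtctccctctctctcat
Klf2, chr8:72318812-72319111, plus strand: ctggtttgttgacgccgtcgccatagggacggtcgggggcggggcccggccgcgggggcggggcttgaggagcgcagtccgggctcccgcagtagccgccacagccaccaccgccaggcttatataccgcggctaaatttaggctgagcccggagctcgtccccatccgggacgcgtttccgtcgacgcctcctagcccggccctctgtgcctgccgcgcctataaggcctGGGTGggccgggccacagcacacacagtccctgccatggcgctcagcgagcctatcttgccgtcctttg
Tcf7, chr11:52282546-52282845, minus strand: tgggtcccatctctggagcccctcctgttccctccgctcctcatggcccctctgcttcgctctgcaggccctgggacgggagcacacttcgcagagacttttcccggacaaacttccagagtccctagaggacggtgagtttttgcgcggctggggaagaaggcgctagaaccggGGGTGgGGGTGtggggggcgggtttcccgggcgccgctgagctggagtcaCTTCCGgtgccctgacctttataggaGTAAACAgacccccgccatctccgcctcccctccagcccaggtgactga
Lef1, chr3:131156044-131156343, plus strand: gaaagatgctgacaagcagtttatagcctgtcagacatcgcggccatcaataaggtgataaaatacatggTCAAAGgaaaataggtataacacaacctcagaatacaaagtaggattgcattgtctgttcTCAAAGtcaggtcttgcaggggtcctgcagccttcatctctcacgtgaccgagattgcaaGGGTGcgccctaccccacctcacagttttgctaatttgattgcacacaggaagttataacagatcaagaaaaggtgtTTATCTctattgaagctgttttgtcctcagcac

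The Il7r window held none of the motifs on either strand, and nor did that of Foxo1. Klf2 held 1 match, a CACCC read on the reverse strand 19 bases before the start. The Tcf7 window, the second of its 2 starts, held the forkhead letters just after the start, with an ETS match 25 bases before the start and 2 CACCC matches further upstream. The Lef1 window, the last of its 4 starts, had 2 TCF/LEF matches at -180 and -120, a CACCC match at -60 and a GATA match after the start. Over all members, CACCC occurred in 13 of 17 windows (76.5%) against 57.5% of all 32851 promoter windows. The forkhead letters occurred in 1 of 17 (5.88%) against 3.65%, TCF/LEF in 2 (11.8%) against 16%, ETS in 2 (11.8%) against 16.9%, and GATA in 1 (5.88%) against 11.2%. Starts of one gene can lie close together and share bases, as the first 2 of Lef1 and the last 2 of Satb1 do. A match to letters this short describes the window and shows no binding.

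Transcripts of both factors of the naive and memory programme, Tcf7 and Lef1, were detected in the kidney Treg RNA. The first Tcf7 probe read 0.99 on array 1 and 1.12 on array 2, and the second -1.91 and -1.93. Both were well above background, the second with a raw spot intensity 3.62 and 3.30 times its local background. Their differences of 0.12 ± 0.20 and -0.02 ± 0.22 had opposite signs, and the gene's mean difference was 0.05 ± 0.15 (1.04-fold, 0.84-fold to 1.28-fold within 2 errors). Lef1 stood at 4.001 on array 1 and 4.22 on array 2, at spot intensities 172 and 210 times the local background. Its difference of 0.22 ± 0.20 corresponds to 1.17-fold, with 2 errors on either side spanning 0.88-fold to 1.55-fold. Tcf7 thus lay within 1 spot error of no difference, while Lef1 lay just beyond 1 error and within 2. Among 1679 genes with a mean level within 1 log2 unit of that of Lef1, 84 (5.003%) differed at least as much in either direction, Lef1 included. The width of this window was set after the values were seen.

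Genes that work with these factors were for the most part close between the arrays. Of 18 listed genes of the TCF/LEF family, the beta-catenin pathway and the Groucho corepressors, 16 were measured on both arrays, 12 of them higher in array 2, with a median difference of 0.09 against 0.01 for all 13743 genes. The list median was 0.03 with spike-in scaling, and 53.8% of all genes were higher in array 2. The largest were Apc, a scaffold of the complex that degrades beta-catenin (0.46 ± 0.23), and the family member Tcf7l2 (0.39 ± 0.16), both at levels below the 75th percentile. The most negative were Ctnnbip1, an inhibitor of beta-catenin (-0.11 ± 0.14), and the E protein gene Tcf12 (-0.02 ± 0.14). On neither array was Tcf7l1 well above background, and Nkd1 was so on 1 array only or with different probes.

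**Figure D1:**
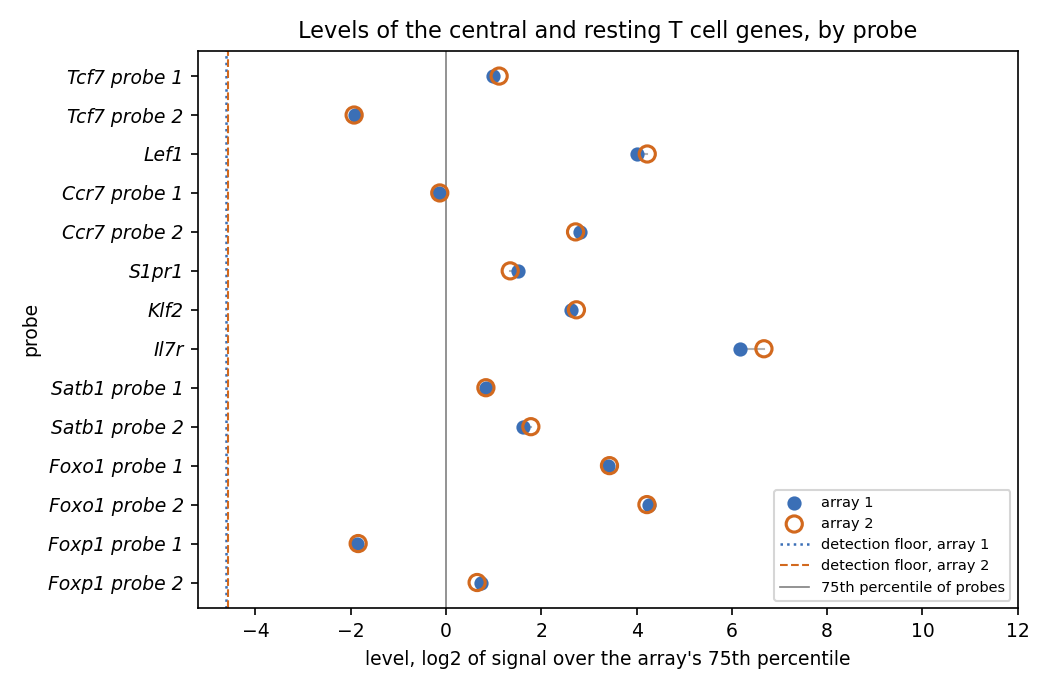
Level of each of the 14 probes on array 1 (filled circles) and array 2 (open circles), as log2 of signal over the 75th percentile of probes, with the detection floor of each array as a vertical line. All 14 probes lay above both floors, 11 of them above the 75th percentile on both arrays, and the circles of Il7r were the farthest apart.

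Foxo1 was among the most closely matched members between the arrays. Its first probe stood at 3.40 on array 1 and 3.43 on array 2, its second at 4.27 and 4.22. Their differences of 0.03 ± 0.20 and -0.05 ± 0.20 gave a mean of -0.01 ± 0.14, and 2 errors on either side spanned 0.81-fold to 1.21-fold. Foxp1 was as closely matched. The probe for transcript NM_001197321 lay at -1.88 and -1.84, and the probe for NM_053202 at 0.73 and 0.65. The gene's mean difference was -0.02 ± 0.15, spanning 0.80-fold to 1.21-fold within 2 errors. It turned to 0.01 under intensity-dependent centring, so its sign depends on the correction.

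Klf2, the Kruppel-like factor of quiescence and recirculation, stood at 2.61 on array 1 and 2.74 on array 2. The difference of 0.12 ± 0.20 (1.09-fold, 0.82-fold to 1.45-fold within 2 errors) was smaller than 1 spot error. Satb1 had levels of 0.83 and 0.84 with the probe for NM_001163630 and of 1.61 and 1.78 with the probe for NM_009122. Both of its probes were higher in array 2, by 0.01 and 0.17, with a mean of 0.09 ± 0.14 (0.87-fold to 1.30-fold within 2 errors). Neither gene differed by more than the spots' own error.

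Some relatives of these factors differed by more. Klf3, a repressor of the same family as Klf2, stood at 1.35 on array 1 and 2.02 on array 2, a difference of 0.66 ± 0.14 (1.59-fold) that both of its probes shared in sign. Klf9 had the largest difference of the family at 0.94 ± 0.21 (1.92-fold), from -0.45 to 0.49. Klf4 was lower in array 2, at 2.31 and 1.96 (-0.35 ± 0.20), and Klf6 was close to equal at 6.26 and 6.29. Foxo3, another FOXO gene of T cells, had a difference of 0.13 ± 0.16, and Foxp3 one of -0.17 ± 0.20. Of 15 listed relatives of the member factors 11 were measured on both arrays, 6 higher and 5 lower, with a median of 0.03. That median was -0.03 when the arrays were scaled by spike-ins, and just below 0 without scaling and with quantile normalisation. On neither array were Foxo6, Foxp2 and Klf11 well above background.

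Genes that act on FOXO1 protein differed in both directions. All 13 listed genes of phosphoinositide 3-kinase and AKT signalling and of nuclear export were measured, 5 higher and 8 lower in array 2, with a median of -0.03, or -0.09 with spike-in scaling. Within 1 spot error of no difference lay 8 of them (61.5%, against 71.4% of all genes). Pik3r1, the regulatory subunit p85 alpha of the kinase, was higher in array 2 by more than 2 errors (0.44 ± 0.20), as, within 2 errors, was the kinase gene Sgk1 (0.26 ± 0.20), while Rictor (-0.19 ± 0.13) and the catalytic subunit gene Pik3cd (-0.18 ± 0.10) were lower. Akt1 differed by 0.11 ± 0.14. Phosphorylation and location of FOXO1, through which this pathway works, are not measured by RNA.

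The interleukin 7 receptor gene was the one member that differed by more than 2 spot errors, with the higher value in array 2. Il7r encodes the alpha chain (CD127), which naive and memory T cells carry and Tregs typically carry little of. Its probe read a processed signal of 20592 on array 1 and 28529 on array 2, which is a level of 6.17 and 6.67. The difference of 0.50 ± 0.20 is 1.42-fold, and 2 errors on either side spanned 1.07-fold to 1.88-fold. Il7r was thus 1 of 9 members beyond 2 spot errors upwards, where 7.9% of all genes lay beyond 2 errors in that direction. None of the 9 members reached 2-fold in either direction, where 1.43% of all genes did. At the level of Il7r, differences between the arrays were small. Of 434 genes with a mean level within 1 log2 unit of it, 4 (0.922%), Il7r included, differed as much in either direction, all of them higher in array 2. That window was set after the values were seen. The difference of Il7r lay between 0.44 and 0.50 under every alternative run on the scanner output, and at -0.50 with the value table, which has the lots the other way round. The filter, flag, outlier and brightest-probe alternatives left its probe unchanged and so could not move it. The difference rests on 1 probe of 1 transcript.

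**Figure D2:**
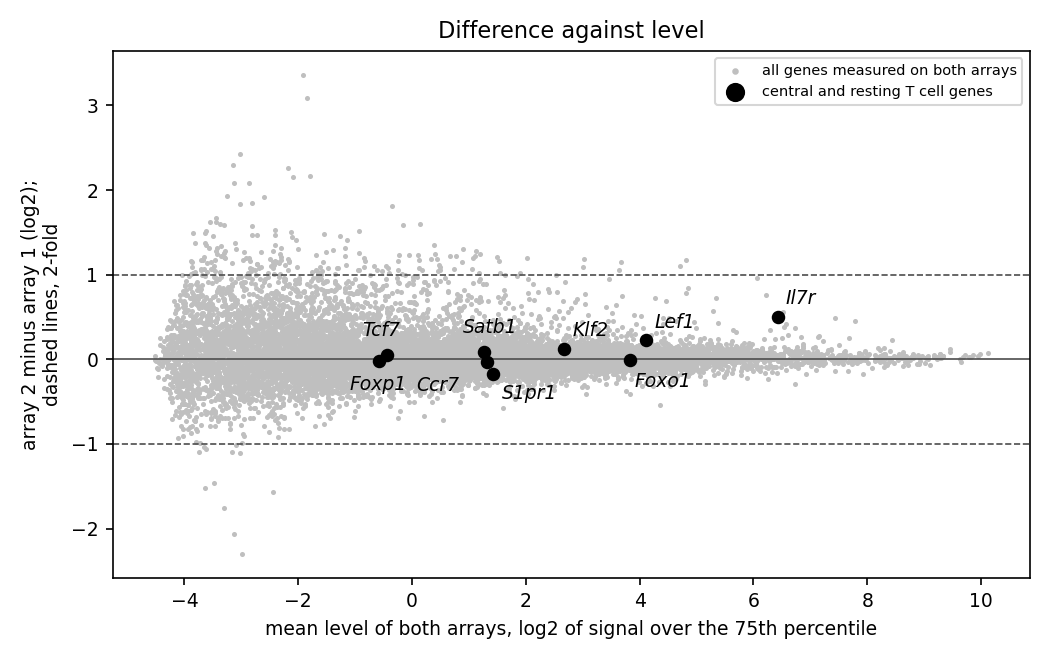
Difference between the arrays (array 2 minus array 1, log2) against the mean level of both arrays for all 13743 genes measured (grey) and the 9 members (black, named). The grey cloud narrows towards high levels, where Il7r at 0.50 sits near its upper edge, while the other members lie within the cloud.

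The partners of the receptor were closer between the arrays. Il2rg, the common gamma chain that pairs with CD127, stood at 6.78 on array 1 and 6.83 on array 2 (0.04 ± 0.20). Jak1 (0.001 ± 0.20), Stat5a (-0.03 ± 0.14) and Stat5b (0.10 ± 0.20), which carry the signal, differed by less than their errors. Bcl2, a survival gene that interleukin 7 supports, was higher in array 2 by 0.29 ± 0.14 (1.22-fold), just beyond 2 errors, and Socs3, a feedback inhibitor of cytokine signals, by 0.23 ± 0.20. In the list of 13 partners 11 were measured, 10 of them higher in array 2, with a median of 0.07, which was 0.01 when the arrays were scaled by spike-ins. Among all genes 53.8% were higher and the median was 0.01. Within 1 spot error of no difference lay 9 of the 11 partners (81.8%, against 71.4% of all genes). Tslp, the ligand of the other receptor that uses CD127, was well above background on neither array, and Il7 on 1 array only or with different probes.

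Markers of the proximal tubule and of macrophages were higher in array 2 as well. Proximal tubule markers were higher in 15 of 16 cases with a median difference of 1.15, and the sum of their signals, in multiples of the 75th percentile, was 149.8 on array 1 and 255 on array 2, with Slc5a2 (1.59 ± 0.15) and Slc13a3 (1.21 ± 0.20) the largest. Macrophage markers were higher in 13 of 14 cases with a median of 0.28 and a sum of 41.67 and 50.01, led by Adgre1 (0.46 ± 0.20) and C1qc (0.42 ± 0.20). CD8 T cell and natural killer markers had 5 of 9 higher with a median of 0.06 and a sum of 63.4 and 67.0. Among them were Eomes at 1.19 ± 0.26, which was dim (-3.47 and -2.27), and Gzmb at -0.27 ± 0.20. Of the CD8 chain genes in this list, Cd8b1 stood at 3.56 on array 1 and 3.76 on array 2, and Cd8a at -1.25 and -1.04. Ncr1 was well above background on neither array. T cell identity genes had 6 of 14 higher, with a median of -0.01, a sum of 1278 and 1295, and differences from -0.15 ± 0.13 for Cd247 and -0.13 ± 0.20 for Bcl11b to 0.10 ± 0.20 for Cd6 and 0.11 ± 0.14 for Cd3e. Their median was 0.01 with the brightest probe of each gene. The part of these cells in the difference of Il7r was not tested.

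The receptor genes of recirculation were detected and close between the arrays. Ccr7, the receptor for lymph node entry, had levels of -0.15 and -0.13 with one probe and of 2.81 and 2.72 with the other. The probes differed in sign, by 0.02 ± 0.21 and -0.09 ± 0.20, and the gene by -0.03 ± 0.14, spanning 0.80-fold to 1.19-fold within 2 errors. S1pr1, the receptor for tissue exit, stood at 1.52 on array 1 and 1.35 on array 2. Its difference of -0.17 ± 0.20 (0.89-fold, 0.67-fold to 1.18-fold within 2 errors) was the lowest among the members and smaller than 1 error. For both receptors, a difference of the size seen for Il7r in the upward direction lies outside the interval of 2 errors. That interval contains no variation between mice or hybridisations, so it sets no limit on a difference between the lots.

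Of the 8 listed genes of lymph node homing 4 were measured on both arrays, among them the integrin subunit genes Itgal (-0.004 ± 0.20) and Itgb2 (0.06 ± 0.20). Glycam1, a mucin of lymph node vessels, was dim at -3.28 and -2.99 (0.29 ± 0.26). The CCR7 ligand genes Ccl19 and Ccl21a and the genes Ackr4 and Chst4 were well above background on neither array. Dendritic cell markers, which bear on Ccr7 because mature dendritic cells express it, had 9 of 12 measured and 5 of these higher, with a median near 0 whose sign turned with the scaling, and a sum of 89.8 and 81.3. Most of that sum came from Siglech, a gene of plasmacytoid dendritic cells (6.39 and 6.25). Zbtb46 (-0.51 ± 0.21) and Flt3 (0.37 ± 0.21) had the largest differences. Of the genes linked to the mature state, Ccl17 (1.28 and 1.06) and Cacnb3 (-2.59 and -2.59) were measured on both arrays, while Fscn1 and Ccl22 were well above background on neither. Xcr1 was not well above background on both. Siglech, Ccl17 and Cacnb3 were named after their values were seen.

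Around S1pr1, 12 of 15 listed S1P receptor, metabolism and signalling genes were measured on both arrays, with the higher value in array 2 for 11 of them and a median of 0.16, which was 0.11 with spike-in scaling. Of all genes 53.8% were higher. The tubule and macrophage markers were higher in array 2 too, and their part in this list was not tested. The largest differences were those of Sphk1, a kinase that makes S1P (0.94 ± 0.23), and Spns2, which exports it from endothelium (0.79 ± 0.21), both at levels below the 75th percentile. Gnai2 (-0.02 ± 0.14) and Grk2 (0.07 ± 0.14), which act in signalling and desensitisation of the receptor, were the lowest. Cd69, whose protein removes S1PR1 from the surface of T cells kept in tissues, stood at 3.64 on array 1 and 3.94 on array 2 (0.30 ± 0.20), and S1pr4, a further receptor of lymphocytes, was at 0.72 and 0.88 (0.16 ± 0.20). S1pr5 and Sgpp2 were well above background on neither array, and S1pr3 on 1 only or by different probes.

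Endothelium expresses S1pr1, Klf2, Foxo1 and Foxp1 as well, and its markers were measured for 12 of 14 genes, 7 of them higher in array 2, with a sum of 8.47 on array 1 and 8.52 on array 2. The median was 0.04, and -0.02 with spike-in scaling, with the largest differences in Eng (0.65 ± 0.25) and Esam (0.47 ± 0.26), both below the 75th percentile. The 2 endothelial markers above that percentile, a limit added after the values were seen, were both lower in array 2, with a median of -0.05. Tek and Tie1 were well above background on neither array. B cells express Ccr7, S1pr1, Klf2, Foxo1 and Foxp1, and their markers were measured for 8 of 12 genes, 4 higher and 4 lower, with a sum of 9.13 and 8.79. Most of that sum came from Cd79b (2.56 and 2.26, -0.31 ± 0.20), named after its values were seen. Cr2 differed by 0.43 ± 0.23 and Cd22 by -0.43 ± 0.19, both dim on both arrays. Fcer2a and Ebf1 were well above background on neither array, and Pax5 and Blk not on both. Immature thymocytes express Satb1, Tcf7 and Lef1, and their defining genes Rag1, Rag2, Ptcra and Arpp21 were well above background on neither array. The 5 measured genes of that list had a sum of 19.70 and 22.01, with Cd8a (0.21 ± 0.15) and Cd8b1 (0.20 ± 0.20) the largest. How much of the signal of the members came from such cells was not tested.

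**Figure D3:**
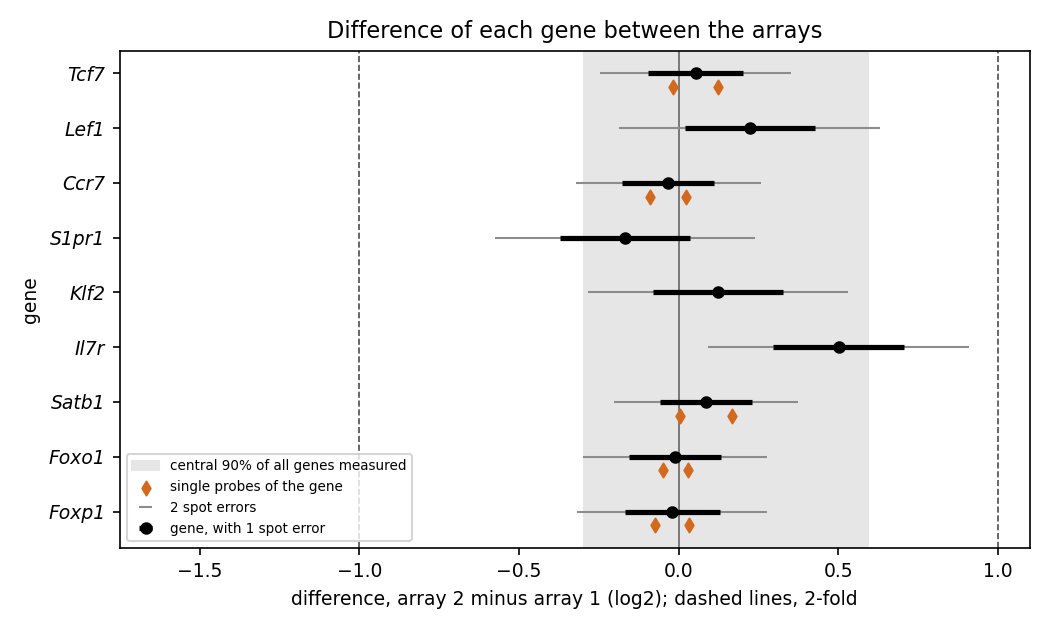
Difference of each member between the arrays (array 2 minus array 1, log2) with 1 and 2 spot errors, single probes as diamonds where a gene has 2, and the central 90% of all genes shaded. The interval of Il7r, from 0.09 to 0.91, is the one that leaves out 0, and no member reaches the dashed lines at 2-fold.

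Across the 9 members, 5 were higher and 4 lower in array 2, with differences from -0.17 to 0.50 and a median of 0.05. By comparison 53.8% of all genes were higher and the median was 0.01. Within 1 spot error of no difference lay 7 members (77.8%, against 71.4% of all genes), and within 2 errors 8. Among genes within 1 log2 unit of their level, the share that differed at least as much was lowest for Il7r and Lef1, given above. It was 21.2% for S1pr1, 26.3% for Klf2 and 49.7% for Satb1, and between 75.3% and 91.6% for Tcf7, Ccr7, Foxo1 and Foxp1. The windows of level used here were likewise set after the values were seen. Probes of one gene differed in sign for 4 of the 5 members with a pair of probes, namely Tcf7, Ccr7, Foxo1 and Foxp1. Opposite signs between probes were also found in 1997 of the 5125 named genes with several measured probes.

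The tissue and effector genes, which mark the opposite state, were split about evenly. All 30 listed tissue and effector Treg genes were measured on both arrays, with 16 higher and 14 lower and a median of 0.01, which lay below 0 under each of the 6 other scalings or corrections. Gata3 stood at 7.32 on array 1 and 7.34 on array 2, Il1rl1, the interleukin 33 receptor, at 3.07 and 3.13, and Cd44, an adhesion receptor of activated T cells, at 2.06 and 1.87 (-0.19 ± 0.12). The differences in this list ran from -0.31 ± 0.20 for Il10 and -0.30 ± 0.14 for the chemokine receptor gene Cxcr6 to 0.22 ± 0.14 for Irf4 and 0.30 ± 0.20 for Cd69. Transcripts of both programmes were therefore detected in the same RNA, and whether single cells held both cannot be told from it.

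Among further genes of naive and central T cells, most were somewhat higher in array 2. All 24 listed partners were measured, with 20 higher and 4 lower and a median of 0.14, which was 0.09 with spike-in scaling. For all genes 53.8% were higher and the median was 0.01. Within 1 spot error lay 13 of the partners (54.2%, against 71.4% of all genes). The largest were Igfbp4, a binding protein of insulin-like growth factors that naive T cells express (0.99 ± 0.18), which was dim on both arrays, and Klf3. The lowest were the progenitor transcription factor gene Myb (-0.69 ± 0.21) and Ikzf1 (-0.09 ± 0.12). Id3, an inhibitor of E proteins, differed by 0.34 ± 0.20 and Bach2, a repressor of effector genes, by 0.04 ± 0.21. Beyond 2 spot errors were Klf3, Igfbp4, Bcl2 and Pik3ip1 in one direction, higher in array 2, and Myb in the other. Of all 13743 genes, 1086 (7.9%) lay beyond 2 errors upwards and 315 downwards. Over the 15 partners above the 75th percentile, a limit added after the values were seen, 13 were higher and the median was 0.15, against 53.2% higher and 0.01 for all genes above that limit.

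The known FOXO1 targets outside the 9 members had a like balance, with 14 of 16 measured genes higher in array 2 and a median of 0.14, which was 0.08 with spike-in scaling. By comparison 53.8% of all genes were higher, the median was 0.01, and 1.43% differed 2-fold or more in either direction. Pdk4, a kinase that shuts off pyruvate oxidation, was the one gene past 2-fold (1.67 ± 0.33), from a level of -4.28 near the detection floor to -2.61. Txnip, an inhibitor of glucose uptake, was bright and higher (4.28 and 4.77, 0.49 ± 0.14), and so were Pik3ip1, an inhibitor of phosphoinositide 3-kinase (0.60 ± 0.21), and Bcl2l11, which encodes the death factor BIM (0.33 ± 0.12). Txnip and Bcl2l11 were named after their values were seen. Klf4 (-0.35) and the cyclin gene Ccng2 (-0.04 ± 0.15) were the lowest, and Ctla4 differed by 0.05 ± 0.20. Over the 10 targets above the 75th percentile, a limit added after the values were seen, the median was 0.05. Of these 8 were higher, against 53.2% of all genes above that limit. The partner and target lists share members such as Pik3ip1, and Bcl2, Klf3, Klf4, S1pr4, Tcf12 and Cd69 each stand in a further list, so the counts are not independent. The tubule and macrophage markers above moved in the same direction, and their part in these lists was not tested.

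**Figure D4:**
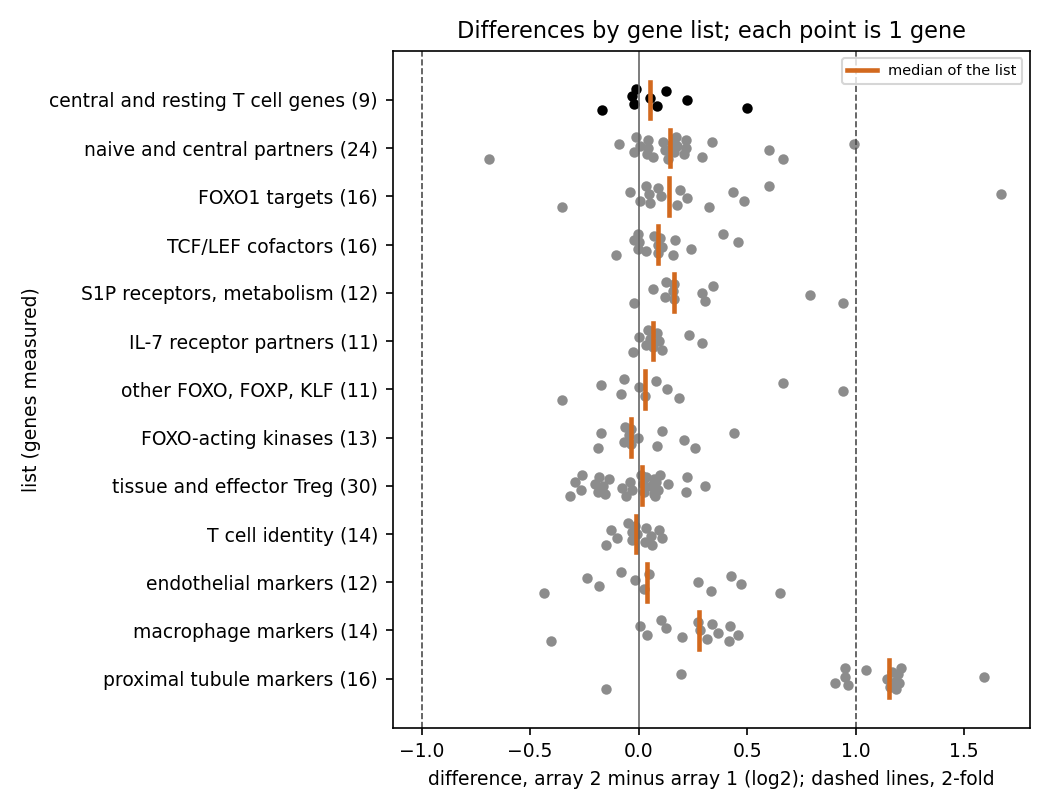
Differences between the arrays (array 2 minus array 1, log2) by gene list, each point 1 gene measured on both arrays and each bar the median of a list. The central and resting genes centre on 0.05 and the tissue and effector Treg genes on 0.01, whereas the proximal tubule markers centre on 1.15.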

How the data were processed

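Agilent Feature Extraction 10.7.1.1 read the spots, as the submitters' processing notes and headers state. The deposited processed signal intensity of each spot is corrected for background within the array and not normalised between arrays, and flags of other kinds mark detection and outliers, per the file headers. A linear ratio per probe makes up the deposited value table, whose making by the authors is not given in the sources. Against the scanner output, log2 of signal over ratio had an SD of 0.000321 for array 1 with the column of lot M, and 0.156 with that of lot I. For array 2 it was 0.000402 with lot I and 0.181 with lot M. The ratio is thus signal over 1 constant per array, not centred by gene, and its lot direction opposes that of the scanner output.

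Of 62976 spots per array, 3671 control spots and the outlier spots (75 and 56) were left out, and no spot was saturated. Signals were taken to log2 and the 75th percentile of each array was subtracted. Of 56605 probes, 54.0% were well above background on each array, and 32994 (58.3%) received 1 symbol through RefSeq accessions (GRCm38.p6, for names only, since the headers name another build). Probes of a gene that were well above background on both arrays were averaged. The number of arrays limits the precision, and no test was run. Differences were computed in Python 3.11.15 and checked on simulated data, and normexp used limma 3.58.1. The members and the lists were chosen with earlier results of these data known. Named besides the members were the 2 highest and 2 lowest genes of each list, 17 further genes in every case, and, for markers, the 2 largest differences and genes not well above background. Some genes of the lists are left unreported.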

Additional observations from a re-analysis of the deposited data

How the results depend on the processing

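All 9 members remained above background with a stricter filter, with another detection flag and when every probe of a gene had to be measured, and none reached 2-fold in any of the 12 recomputations or 1.5-fold. Beyond 2 spot errors, a rule added after seeing the data, there was 1. The median over the members was 0.12 with the brightest probe per gene and -0.055 with the value table, which has the lots the other way round. Elsewhere it lay between -0.003 and 0.09. Of 108 recomputed differences of single members 103 moved by less than 1 spot error, and the 5 others were values from the value table. Many of the 103 could not move. Every member kept its value without a filter, with the stricter filter, with the other flag and with outlier spots kept. Members with 1 probe also kept theirs with the brightest probe. Without the value table, 2 members changed sign, Tcf7 to -0.003 with spike-in scaling and Foxp1 to 0.01 with lowess centring. The 8 spike-ins had a median difference of 0.06, so smaller differences depend on the scaling. A 2-fold difference was reached by 184 genes upwards in array 2 and by 12 downwards. These counts were 28 and 0 with normexp, 648 and 399 without a filter, 84 and 1 with a stricter one, 440 and 229 with the other flag, 13 and 186 with the value table, and 709 and 112 at 1.5-fold. The B cell median, -0.05, was 0.30 with a stricter filter, 0.04 with normexp, -0.26 without a filter and -0.28 with the other flag. The endothelial median was 0.16 without a filter and with the other flag, that of CD8 and natural killer markers 0.19 with the other flag, and the dendritic one 0.09 without a filter and -0.07 with the brightest probe. With 1 array per lot, no array could be left out.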
